A study of Mus musculus with 12 samples.

Results

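The genes described here are the secreted and cell-surface metalloproteases of the MMP, ADAM and ADAMTS families, the ADAMTS-like (ADAMTSL) matrix proteins and the tissue inhibitors of metalloproteases (TIMPs). The rule that chose them used gene symbols and no values, but it was set with earlier results of these data known. It took 83 of the 47729 genes counted: 23 MMP, 32 ADAM, 19 ADAMTS, 5 ADAMTSL and 4 TIMP genes. RNA was sequenced from 6 mouse liver cancer cell lines labelled hepatocellular carcinoma (HCC). The primary liver tumours gave lines T1, T2 and T3. Lines M1, M2 and M3 were grown from metastases in lymph nodes. All 6 carry the labels BRAFV600E and p53 KO, and come from a model in which the mutant BRAF is expressed in hepatocytes only. The control libraries therefore carry the oncogene and the p53 loss as well, and no line without them was analysed here. Each line gave 1 library after 48 h in DMSO, the solvent, and 1 after 48 h in 2 µM PLX4720, an inhibitor of mutant BRAF. Each site thus has 3 cultured lines as replicates. A number is shared by T3, M2 and M3 in how their tables are named, so whether these 3 came from separate animals is not known, and p-values measure the spread between lines.

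MMPs are zinc proteases that cut collagens, gelatin and other matrix proteins. Most are secreted as inactive precursors, and the membrane-type members stay on the cell surface, where Mmp14 activates pro-Mmp2 with the help of Timp2. ADAMs are membrane proteases, several of which shed growth factors and receptors from the cell surface, while the secreted ADAMTS enzymes cut proteoglycans, process procollagens or trim other matrix proteins. The ADAMTSL proteins resemble the ancillary domains of ADAMTS and have no protease domain. TIMPs bind the active site of these enzymes, and Timp3 is the member that also binds to the matrix and blocks many ADAM and ADAMTS proteases. In liver, MMPs and TIMPs are best known from the turnover of scar matrix and from the invasion of tumours.

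Library totals were 31992512 to 39288748 counted fragments, and the 83 genes took 0.122% to 0.308% of them. That share was higher with PLX4720 than with DMSO in 6 of 6 lines. The share of mitochondrial genes was 3.67% in the PLX4720 library of T3, above the 0.189% to 0.712% of the other 11. The lines differed by site in the markers of their labelled type. The 7 epithelial markers summed to 5501 to 8181 CPM (scaled fragment counts relative to library size) in the primary libraries and to 21.7 to 43.0 CPM in the metastasis libraries. The 8 hepatocyte markers summed to 141 to 298 CPM and to 0.208 to 3.14 CPM, with Alb, Serpina1a, Tat and Ttr at 0 in every metastasis library, so the hepatocyte label does not show in those lines. The 11 fibroblast and stellate cell markers summed to 2.29 to 70.3 CPM in primary libraries, with Lrat, Lum and Thy1 at 0. In the metastasis lines they summed to 2286 to 6041 CPM under DMSO and 6460 to 15250 CPM with PLX4720, with Des and Lrat at 0. The 8 macrophage markers summed to 54.1 to 99.6 CPM in primary and 9.28 to 34.03 CPM in metastasis libraries with Adgre1 at 0 throughout, and the 6 lymphocyte markers stayed at or below 0.327 CPM. The 7 endothelial markers summed to 0.342 to 75.3 CPM in primary and 0.639 to 2.355 CPM in metastasis libraries. Every difference between sites below runs alongside these marker differences. Markers also moved with PLX4720 in metastasis lines, where 12% of all genes tested rose and 8.36% fell. There 4 of 8 tested fibroblast and stellate markers and 2 of 7 epithelial markers rose, and 3 of 5 tested macrophage markers fell. Over all lines 3 of those 5 macrophage markers fell and 1 rose, beside 12.7% and 14.5% of all genes. The part of these markers in the results was not tested. In RNA from a whole culture, fewer cells of a type and less RNA per cell cannot be told apart.

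Of the 83 genes, 17 reached 1 CPM in every library and 37 stayed under 1 CPM in every library. No fragment was counted in any library for 11, of which 10 are ADAM genes. Many of these ADAM genes are known from the testis. A filter on low counts left 47 of the 83 for the test of PLX4720 against DMSO, which used all 12 libraries with the cell line as a block. The tests of metastasis against primary lines kept 41 under DMSO and 43 with PLX4720. A gene that is silent in 1 site passes such a filter only because it is high in the other. Between genes, levels are compared below as FPKM, which is CPM per kilobase of exon. Adam9 was the most abundant ADAM transcript on this scale in every library but T1 with PLX4720, where Adam10 stood at 58.0 FPKM and Adam9 at 52.9 FPKM. Mmp14 took 34.8% to 59.4% of all MMP FPKM in primary and 19.6% to 49.1% in metastasis libraries, and Mmp2 took at most 2.5% in primary and 19.6% to 46.9% in metastasis libraries.

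PLX4720 moved a large share of the expressed genes of this group, mostly upward. Over all 6 lines, 16 of the 47 tested rose and 4 fell (edgeR, adjusted p under 0.05), which is 42.6%. Among all 16555 genes tested 27.2% were called, 14.5% higher and 12.7% lower. Rises included the proteoglycanases Adamts5 and Adamts1 and the inhibitor Timp3, and the falls were in the stromelysins Mmp3 and Mmp10, in Adam19 and in Timp1. In primary lines alone, 10 rose and 1 fell, against 8.23% of all genes called (4.46% higher, 3.77% lower). In metastasis lines alone, 18 rose and 6 fell, against 20.4% of all genes (12% higher, 8.36% lower). The median log2 change of the 47 was 0.427 over all lines, 0.068 in primary lines and 0.546 in metastasis lines, beside 0.032, 0.029 and 0.017 over all genes tested. These comparisons share libraries, so their counts are given side by side only. The difference between the PLX4720 effects of both sites passed its own test for 6 of the 47, which were larger or more positive in metastasis lines for 5 and more negative for 1, against 2.94% of all genes (1.85% and 1.09%).

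**Figure D1:**
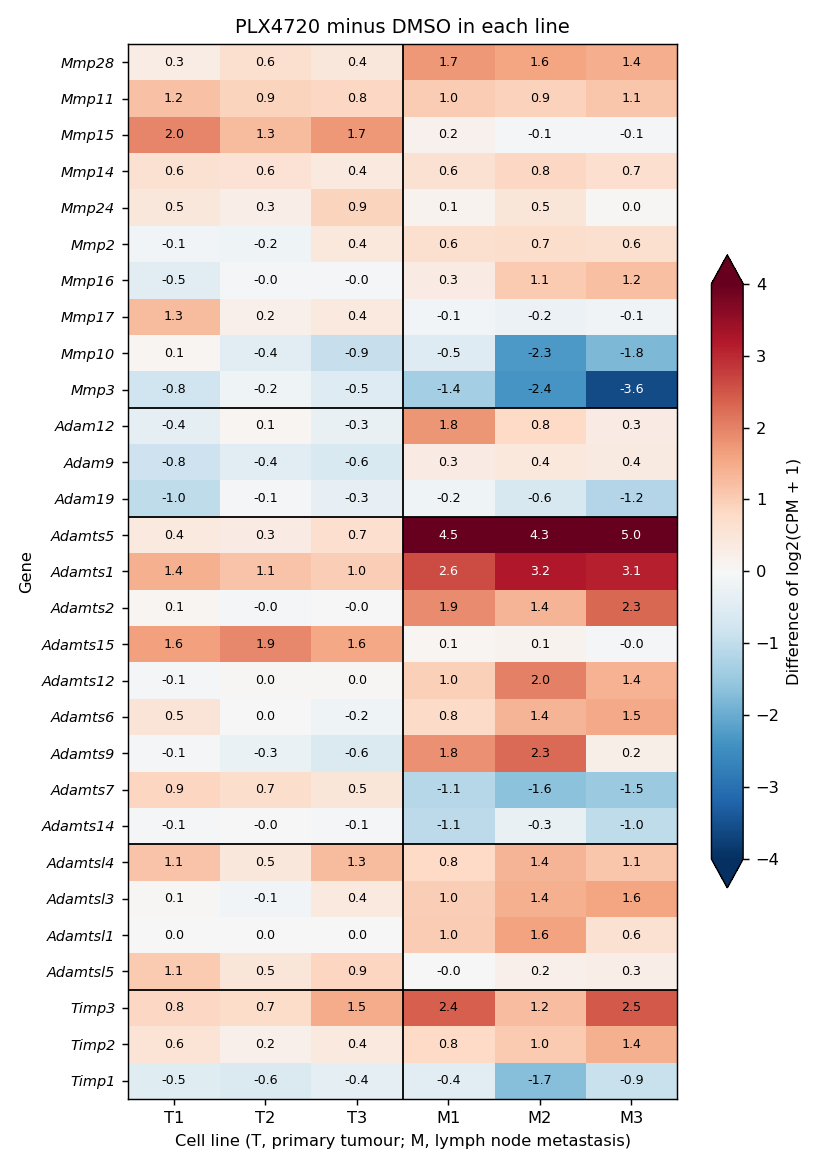
Heat map of the change with PLX4720 in each of the 6 lines, as the difference of log2(CPM + 1), for the 29 genes of the group called in a PLX4720 comparison. The colour scale ends at 4 in each direction. Adamts5 is darkest in M1, M2 and M3, and Mmp3 is lower with PLX4720 in every line.

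The inhibitors changed in opposite directions. Timp1, a secreted inhibitor of most MMPs, stood under DMSO at 24.1, 26.7 and 53.8 CPM in T1, T2 and T3 and at 275, 407 and 408 CPM in M1, M2 and M3. With PLX4720 it stood at 16.8, 17.5 and 40.4 CPM and at 203, 124 and 218 CPM. It was lower with PLX4720 in all 6 lines, and the metastasis libraries lay above every primary library under both treatments. Over all lines it fell by 0.76 on the log2 scale (SE 0.14, edgeR adjusted p = 0.00557). In metastasis lines it fell by 1.02 (SE 0.20, adjusted p = 0.00808 by edgeR), while in primary lines its change of -0.51 did not pass (edgeR adjusted p = 0.152).

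Timp2, which takes part in the activation of pro-Mmp2 by Mmp14, stood under DMSO at 165, 198 and 322 CPM in T1, T2 and T3 and at 220, 252 and 121 CPM in M1, M2 and M3. With PLX4720 its levels were 241, 227 and 421 CPM and 384, 521 and 329 CPM, higher in every line. It rose over all lines by 0.74 (SE 0.09, edgeR adjusted p = 0.000807) and in metastasis lines by 1.10 (SE 0.13, edgeR adjusted p = 0.000607). In primary lines its change of 0.38 did not pass (edgeR adjusted p = 0.0954). Timp3, the matrix-bound inhibitor, varied far more between lines. Under DMSO it stood at 52.9, 1.24 and 115 CPM in T1, T2 and T3 and at 1.61, 68.4 and 27.2 CPM in M1, M2 and M3. After PLX4720 the values were 94.3, 2.75 and 321 CPM and 12.8, 161 and 154 CPM, again higher in every line. The rise over all lines was 1.64 (SE 0.20, edgeR adjusted p = 0.00085) and in metastasis lines 2.13 (SE 0.28, edgeR adjusted p = 0.0012). In primary lines Timp3 passed at an adjusted p of 0.0422 by edgeR, but not without T1 (0.154), T2 (0.129) or T3 (0.198). Exons of Timp3 share 21.3% of their bases with Syn3 on the opposite strand, and the authors' counting records no strand option. Timp4 had 7 fragments in all 12 libraries and was not tested.

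Per kilobase, the sum of the TIMP transcripts differed by site and its make-up shifted with the drug. Under DMSO the sum was 75.9, 81.1 and 157 FPKM in T1, T2 and T3 and 366, 531 and 494 FPKM in M1, M2 and M3. With PLX4720 it was 92.5, 78.4 and 193 FPKM and 329, 293 and 349 FPKM. The scale matters, since FPKM divides by an exon length of 888 bases for Timp1 and 8144 for Timp3. In CPM the sum was 496, 728 and 556 in M1, M2 and M3 under DMSO and 600, 806 and 701 with PLX4720, higher in each. T3 with PLX4720 stood at 782 CPM, so with the drug the sites overlapped on that scale. Timp1 made up 35.7% to 38.5% of the FPKM sum in primary lines under DMSO and 20.5% to 25.2% with PLX4720. In metastasis lines its share was 84.5% to 93.0% under DMSO and 47.5% to 70.4% with PLX4720. The share of Timp2 in metastasis lines was 6.3% to 15.4% under DMSO and 24.2% to 45.7% with PLX4720. These shares do not overlap between treatments in either site for Timp1, and they are given as a description of summed transcripts, with no test.

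**Figure D2:**
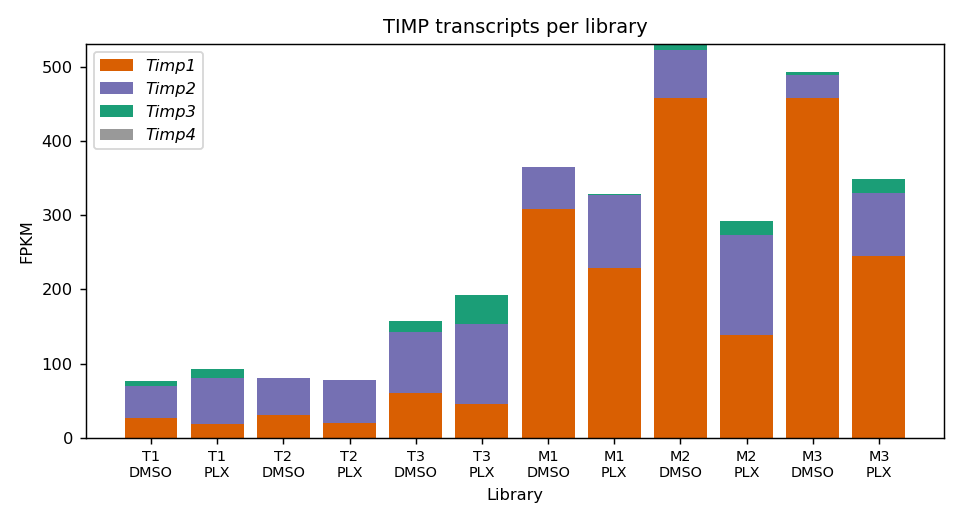
Stacked bars of the FPKM of Timp1, Timp2, Timp3 and Timp4 in each of the 12 libraries, with no error since each bar is 1 library. Timp1 fills most of each M1, M2 and M3 bar under DMSO and less with PLX4720, and Timp4 is too low to be seen.

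Among the membrane-type MMPs, 3 of the 5 tested rose over all lines, beside 14.5% of all genes tested. Mmp14, the main activator of pro-Mmp2 at the cell surface, stood under DMSO at 129, 135 and 50.9 CPM in T1, T2 and T3 and at 132, 155 and 115 CPM in M1, M2 and M3. The PLX4720 libraries gave 196, 201.3 and 67.4 CPM and 201.2, 277 and 185 CPM. It was higher with the drug in every line, with a log2 change of 0.62 over all lines (SE 0.06, edgeR adjusted p = 0.0003) and 0.71 in metastasis lines (SE 0.08, edgeR adjusted p = 0.000666). The primary change of 0.53 (edgeR adjusted p = 0.012) did not pass without T1 (0.117) or T2 (0.0783). Mmp14 did not differ detectably by site under DMSO, at 105 ± 46.9 CPM in primary and 134 ± 20.1 CPM in metastasis lines (mean and SD, n = 3 each; fitted log2 difference 0.37, edgeR adjusted p = 0.6).

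Mmp15, another membrane-type MMP, was a transcript of the primary lines. It stood at 9.25, 0.47 and 0.83 CPM under DMSO in T1, T2 and T3 and at 39.03, 2.53 and 5.13 CPM with PLX4720, while the metastasis libraries held 0.03 to 0.18 CPM. Its rise in primary lines was 2.33 (SE 0.25, edgeR adjusted p = 0.0035), and it passed with any 1 line left out. Mmp24, a membrane-type MMP best known from neurons, was also high in primary lines, at 81.7, 47.9 and 4.33 CPM under DMSO and 112, 58.3 and 8.85 CPM with PLX4720. The metastasis libraries held 0.18 to 0.66 CPM of Mmp24. Over all lines the Mmp15 change of 1.22 (edgeR adjusted p = 0.0297) failed without T1 (0.0595), T2 (0.0578), T3 (0.0581), M1 (0.178) or M2 (0.0541). That of Mmp24, 0.67 (edgeR adjusted p = 0.0436), failed without T1 (0.0862), T3 (0.0678), M1 (0.0532), M2 (0.193) or M3 (0.057). Mmp16 showed the opposite layout, with 7.26 to 23.3 CPM in metastasis and 0 to 1.06 CPM in primary libraries. It rose in metastasis lines by 0.94 (edgeR adjusted p = 0.0114), a call lost without M2 (0.0893) or M3 (0.0749). Mmp17 rose in primary lines by 1.51 (edgeR adjusted p = 0.0314) on 11 to 106 fragments a library, and the call ended without T1 (0.332), T2 (0.0712) or T3 (0.0899).

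The gelatinases differed from each other. Mmp2 stood under DMSO at 0.33, 0.16 and 1.99 CPM in T1, T2 and T3 and at 93.2, 171 and 64.5 CPM in M1, M2 and M3. With PLX4720 it stood at 0.24, 0.03 and 2.97 CPM and at 146, 278 and 101 CPM. No metastasis library came near any primary library. The rise in metastasis lines was 0.66 (edgeR adjusted p = 0.0114) and did not pass without M2 (0.0864). Mmp9, the other gelatinase, stayed at or below 3.82 CPM in every library, and its change over all lines was 0.02 (edgeR adjusted p = 1). That value averages changes of -0.78 in primary lines (edgeR adjusted p = 0.49) and 0.81 in metastasis lines (edgeR adjusted p = 0.144). Their difference, 1.59, did not pass (edgeR adjusted p = 0.377). Under DMSO Mmp9 was 2.46 higher in metastasis lines, which did not pass either (edgeR adjusted p = 0.0928).

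The stromelysins, which cut many non-collagen matrix proteins and activate other MMPs, split by member. Mmp3 stood under DMSO at 1.95, 0.13 and 2.595 CPM in T1, T2 and T3 and at 116, 28.5 and 37.0 CPM in M1, M2 and M3. After PLX4720 the values were 0.68, 0 and 1.497 CPM and 44.3, 4.70 and 2.21 CPM. It was lower with the drug in 6 of 6 lines, with a change over all lines of -1.88 (SE 0.37, edgeR adjusted p = 0.00741). In metastasis lines the change was -2.58 (SE 0.42, edgeR adjusted p = 0.00357), and it was -3.29 without M1 and -1.97 without M3, still past the threshold.

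Mmp10, a stromelysin closely related to Mmp3, stood at 0.31, 0.63 and 2.95 CPM in T1, T2 and T3 and 1.37, 4.49 and 2.44 CPM in M1, M2 and M3 under DMSO. With PLX4720 its levels were 0.37, 0.22 and 1.07 CPM and 0.66, 0.12 and 0 CPM, lower in all lines but T1. Over all lines the change was -2.21 (SE 0.56, edgeR adjusted p = 0.0201), which did not pass without T2 (0.0548), T3 (0.0868) or M2 (0.064) and was -3.45 without M1. In metastasis lines it was -3.37 (SE 0.80, edgeR adjusted p = 0.019), which did not pass without M2 (0.111) or M3 (0.0512) and was -5.82 without M1. Mmp11, a stromelysin by name that is activated inside the cell, went the other way. It stood at 11.2, 12.7 and 5.06 CPM in T1, T2 and T3 and 16.1, 15.1 and 4.56 CPM in M1, M2 and M3 under DMSO. The PLX4720 libraries gave 26.7, 24.5 and 9.87 CPM and 34.04, 29.6 and 10.9 CPM, higher in every line. Its rise was 1.06 in primary lines (SE 0.12, edgeR adjusted p = 0.00408), 1.09 in metastasis lines (edgeR adjusted p = 0.000493) and 1.07 over all lines (SE 0.09, edgeR adjusted p = 0.000144).

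Mmp3 and Mmp10 lie in a run of 10 MMP genes on chromosome 9 (GRCm38, 7272514 to 7699585, 427.1 kb), with the collagenases Mmp13, Mmp1a, Mmp1b and Mmp8 and with Mmp12, Mmp27, Mmp20 and Mmp7. Their summed level under DMSO and with PLX4720 was 4.37 and 3.11 CPM in T1, 8.32 and 2.21 CPM in T2, and 38.3 and 31.1 CPM in T3. It was 119 and 46.2 CPM in M1, 33.9 and 5.00 CPM in M2, and 43.5 and 2.68 CPM in M3. The sum was lower with the drug in 6 of 6 lines, and its largest part was Mmp13 in primary lines under DMSO and Mmp3 in metastasis lines. In the metastasis lines together, Mmp3 had 6123 fragments under DMSO and 1850 with PLX4720, Mmp10 had 281 and 28, and Mmp13 had 147 and 52. The change of Mmp13 there did not pass (-1.27, edgeR adjusted p = 0.259), and it was higher with the drug in 1 of these lines. Mmp1b had 25 and 3, a ratio of 8.52 (95% counting interval 2.6 to 44.1), and Mmp1a had 23 and 1, a ratio of 23.5 (3.82 to 969). These intervals leave out the spread between lines, and 1 library held 18 of the Mmp1b fragments. The other genes of the run had 9 fragments or fewer in these lines. In the primary lines together, Mmp13 had 1662 fragments under DMSO and 1207 with PLX4720, Mmp3 had 178 and 82, and Mmp10 had 152 and 62. None of these changes passed in primary lines (edgeR adjusted p = 0.401, 0.267 and 0.429). Mmp7 had 0 and 8 there, Mmp27 had 0 and 2, and Mmp12 and Mmp20 had 0 and 1 each. Several of these genes are tandem relatives, so fragments may be split between copies as the authors' settings assigned them.

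Some promoters of this run are printed because 8 of its 10 genes held the letters TGANTCA in the 250 bases before the start (RefSeq, GRCm38.p6). These letters are the core site of AP-1 (Fos and Jun dimers). Mmp12, Mmp20 and Mmp7 also held them but are not printed, and Adam19, from outside the run, is printed too. The match is the same on both strands. The sequences are the 150 bases before the start, 5′ to 3′ on the gene's strand, with the match in capitals. They lie at chr9:7445672-7445821 (plus strand) for Mmp3, chr9:7502192-7502341 (plus) for Mmp10, chr9:7272364-7272513 (plus) for Mmp13, chr9:7463991-7464140 (plus) for Mmp1a, chr9:7388027-7388176 (minus) for Mmp1b and chr11:46055834-46055983 (plus) for Adam19.
Mmp3: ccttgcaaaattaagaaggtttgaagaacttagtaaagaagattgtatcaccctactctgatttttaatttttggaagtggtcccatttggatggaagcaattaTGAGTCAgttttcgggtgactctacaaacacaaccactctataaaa
Mmp10: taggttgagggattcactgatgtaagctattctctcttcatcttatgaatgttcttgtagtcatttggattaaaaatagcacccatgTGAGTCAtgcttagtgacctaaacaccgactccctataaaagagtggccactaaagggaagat
Mmp13: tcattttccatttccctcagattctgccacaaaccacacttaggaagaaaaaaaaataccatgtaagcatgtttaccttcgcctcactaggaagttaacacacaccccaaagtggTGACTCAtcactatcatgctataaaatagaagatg
Mmp1a: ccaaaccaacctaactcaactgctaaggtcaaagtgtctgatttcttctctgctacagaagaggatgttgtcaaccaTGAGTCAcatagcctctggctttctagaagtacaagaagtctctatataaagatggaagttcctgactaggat
Mmp1b: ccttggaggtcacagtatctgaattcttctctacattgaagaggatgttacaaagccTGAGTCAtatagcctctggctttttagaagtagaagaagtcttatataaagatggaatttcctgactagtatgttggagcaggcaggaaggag
Adam19: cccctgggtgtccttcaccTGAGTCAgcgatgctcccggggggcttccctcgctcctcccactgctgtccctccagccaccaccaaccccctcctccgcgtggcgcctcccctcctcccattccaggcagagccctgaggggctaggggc

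Counted from the start, the match began at base -46 in Mmp3, -63 in Mmp10, -35 in Mmp13, -73 in Mmp1a and -93 in Mmp1b. In Adam19, which lies on another chromosome, it began at -131 in 1 of 3 annotated start windows. Of the 83 genes 52 had a promoter entry, and 12 of these 52 (23.1%) held the letters, beside 7.82% of 27025 genes and 6.75% of 32851 windows of the same length. The 12 include the 8 related genes of the chromosome 9 run, which are not independent of each other. The counts by call cover only genes with a promoter entry, which leaves out Adamts5 and Adamts7 among others. In metastasis lines 6 genes fell and 18 rose, of which 5 and 11 had an entry. The letters stood in 3 of those 5 and in 0 of those 11. By call over all lines, the letters stood in 3 of the 4 genes that fell (Mmp3, Mmp10 and Adam19, but not Timp1). Of the 16 that rose 12 had an entry, and 0 of these held the letters. Among tested genes with an entry that were not called, 1 of 12 held them (Mmp13). The letters also stood in 8 of the 24 genes with an entry that were not tested (33.3%). The letters GGAATG, the core of a TEAD site, stood on either strand in 3 of the 52, namely Adam19, Adamts13 and Timp1, beside 14.36% of the 27025 genes. A match describes the letters only.

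**Figure D3:**
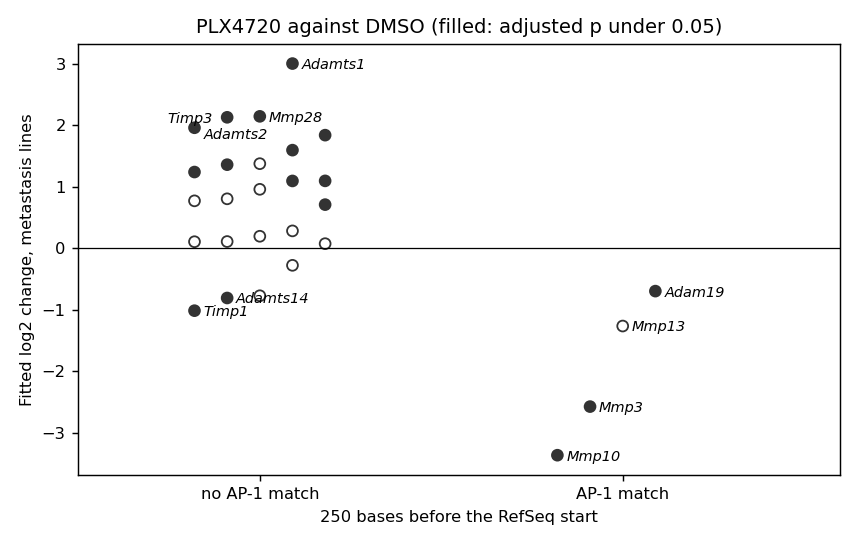
Fitted log2 change with PLX4720 in the metastasis lines for the tested genes of the group that have a promoter entry, divided by whether the letters TGANTCA stand in the 250 bases before the start. Each point is 1 gene, filled where it passed the test. Mmp3, Mmp10 and Adam19 are the called genes with the letters, and all 3 are below 0.

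Of the other MMPs, Mmp28, a secreted MMP of epithelia, changed more with PLX4720 in metastasis than in primary lines. It stood under DMSO at 44.4, 19.8 and 8.84 CPM in T1, T2 and T3 and at 4.15, 1.64 and 0.46 CPM in M1, M2 and M3. With PLX4720 it stood at 55.2, 31.5 and 12.35 CPM and at 16.2, 6.79 and 3.00 CPM, higher in every line. The rise in metastasis lines was 2.14 (SE 0.16, edgeR adjusted p = 9.72e-05), and the difference from the primary lines was 1.66 (SE 0.21, adjusted p = 0.00796 by edgeR). The change in primary lines, 0.49, did not pass (edgeR adjusted p = 0.0595). The site difference of Mmp28 itself did not pass under DMSO (-3.52, edgeR adjusted p = 0.0637) or with PLX4720 (-1.91, edgeR adjusted p = 0.162). Exons of Mmp28 share 12.0% of their bases with an opposite-strand gene. Mmp23, a membrane-anchored MMP named after its values were seen, stood at 11.7 and 27.8 CPM in M2 under DMSO and PLX4720 and at 0.83 CPM or less in the other lines.

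Of the 14 ADAM genes tested, 1 rose and 1 fell over all lines, or 14.3% against 27.2% of all genes. In primary lines the share called was 7.14% against 8.23%, and in metastasis lines 21.4% against 20.4%. Adam9, a broadly expressed membrane protease, moved in opposite directions at the 2 sites. It stood at 382, 324 and 517 CPM in T1, T2 and T3 under DMSO and 214, 237 and 338 CPM with PLX4720. In M1, M2 and M3 it stood at 126, 208 and 252 CPM under DMSO and 157, 278 and 324 CPM with PLX4720. It was lower in each primary line and higher in each metastasis line, and the difference was 1.00 (SE 0.13, edgeR adjusted p = 0.00851), a call that held with any 1 line left out. Within sites the changes were less certain. The fall of 0.63 in primary lines (edgeR adjusted p = 0.00859) did not pass without T1 (0.0982). The rise of 0.36 in metastasis lines (edgeR adjusted p = 0.0237) did not pass without T2 (0.051), M1 (0.0507), M2 (0.135) or M3 (0.0782).

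Adam10, a main sheddase of Notch and cadherins, had log2 changes of 0.35 over all lines, 0.41 in primary and 0.28 in metastasis lines, none past the threshold (edgeR adjusted p = 0.0602, 0.161 and 0.28). Adam19, a sheddase of neuregulin, stood under DMSO at 2.90, 0.05 and 1.13 CPM in T1, T2 and T3 and at 13.6, 42.1 and 54.5 CPM in M1, M2 and M3. After PLX4720 the values were 0.94, 0 and 0.70 CPM and 11.9, 26.5 and 23.7 CPM, lower in every line. Its change of -0.98 over all lines (SE 0.20, edgeR adjusted p = 0.00885) did not pass without T1 (0.0942). In metastasis lines its change of -0.70 (edgeR adjusted p = 0.0454) did not pass without M2 (0.145) or M3 (0.189). Exons of Adam19 share 10.1% of their bases with opposite-strand genes.

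Adam12, a protease of muscle precursors and activated stroma, stood at 3.76, 1.68 and 12.0 CPM in T1, T2 and T3 and 11.5, 1.61 and 0.67 CPM in M1, M2 and M3 under DMSO. The PLX4720 libraries gave 2.64, 1.85 and 9.52 CPM and 41.9, 3.52 and 1.11 CPM. It was higher with the drug in each metastasis line and mixed in the primary lines. The difference between sites of 1.64 (SE 0.32, edgeR adjusted p = 0.0328) did not pass without T1 (0.126), T2 (0.0714), T3 (0.11), M1 (0.0698) or M2 (0.0691). Its change over all lines of 0.56 (edgeR adjusted p = 0.0318) did not pass without T1 (0.0591), T2 (0.0933), T3 (0.07) or M1 (0.151). Some ADAM genes were seen in 1 or 2 lines and are named after their values were seen. Adam33 stood at 28.6 and 24.4 CPM in M1 under DMSO and PLX4720 and at 1.67 and 1.43 CPM in M2. Adam5 stood at 0.18 CPM or less under DMSO and at 1.37 and 1.67 CPM with PLX4720 in M1 and M2. Adam23 stood at 4.48 and 4.76 CPM in T3 and at 5.40 and 12.0 CPM in M1, and at 0.58 CPM or less in the other lines. Adam8, a protease of myeloid cells, stood at 2.26, 3.95 and 9.17 CPM in T1, T2 and T3 under DMSO and 10.3, 7.71 and 11.2 CPM with PLX4720. In M1, M2 and M3 it stood at 7.25, 2.71 and 9.21 CPM and then 2.66, 1.97 and 6.92 CPM, so its direction was opposite at both sites in every line. The difference of -1.87 did not pass (SE 0.49, edgeR adjusted p = 0.0887). Adam15, an abundant ADAM with values of 23.3 to 118 CPM, was called in no comparison.

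Of the 12 ADAMTS genes tested, 5 rose and 0 fell over all lines (edgeR adjusted p under 0.05), against 14.5% of all genes higher and 12.7% lower. At an unadjusted p under 0.05, 9 of the 12 were past the threshold in either direction. In metastasis lines alone 6 rose and 2 fell, against 12% and 8.36% of all genes. Adamts5 had the largest fitted change of the group over all lines and in metastasis lines. Adamts1, a protease of aggrecan and versican, stood under DMSO at 13.1, 187 and 22.4 CPM in T1, T2 and T3 and at 26.4, 59.4 and 115 CPM in M1, M2 and M3. With PLX4720 it stood at 36.8, 415 and 45.2 CPM and at 165, 560 and 999 CPM. It was higher with the drug in 6 of 6 lines. The rise was 2.11 over all lines (SE 0.10, edgeR adjusted p = 2.46e-05), 1.21 in primary lines (SE 0.13, edgeR adjusted p = 0.0036) and 3.00 in metastasis lines (SE 0.14, edgeR adjusted p = 1.17e-05), which is 8.02-fold. The difference between sites was 1.79 (SE 0.19, edgeR adjusted p = 0.00411). Of all ADAMTS FPKM, Adamts1 took 14.0%, 23.9% and 52.9% in M1, M2 and M3 under DMSO and 50.2%, 66.1% and 88.4% with PLX4720.

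Adamts5, a main aggrecanase, was low under DMSO in every line and rose in the metastasis lines. It stood under DMSO at 0.25, 1.58 and 1.61 CPM in T1, T2 and T3 and at 0.63, 2.74 and 0.44 CPM in M1, M2 and M3. After PLX4720 the values were 0.63, 2.23 and 3.18 CPM and 34.7, 71.3 and 44.4 CPM. It was higher with the drug in every line, and the metastasis libraries with PLX4720 lay above all others. In primary lines its change of 0.84 did not pass (edgeR adjusted p = 0.162). The rise in metastasis lines was 5.52 (SE 0.32, edgeR adjusted p = 2.89e-05), or 46.0-fold, and it was 6.19 without M2. The difference between sites was 4.69 (SE 0.47, edgeR adjusted p = 0.00361), and 5.33 without M2.

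**Figure D4:**
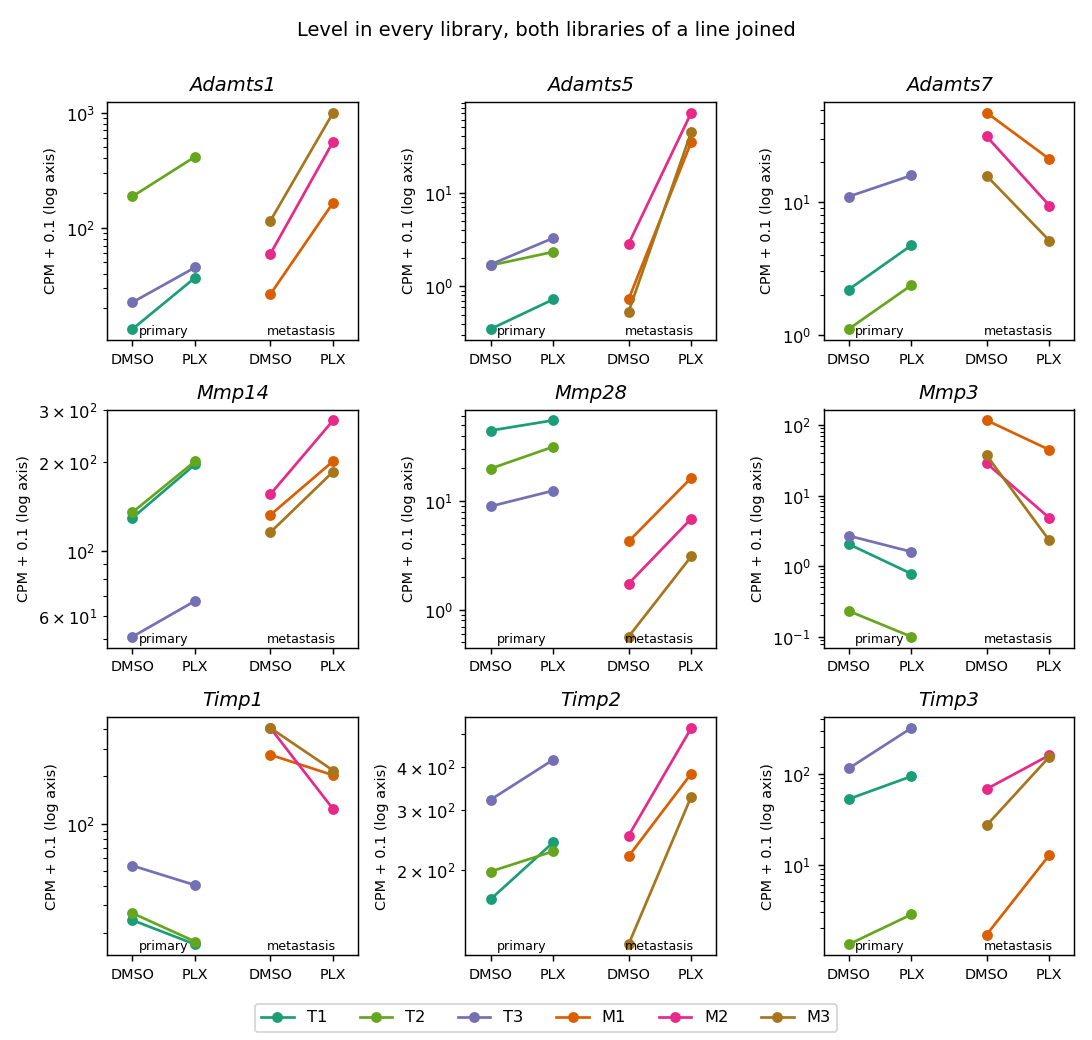
Levels as CPM + 0.1 on log axes for 9 genes of the group in all 12 libraries, with a line joining the DMSO and PLX4720 library of each cell line and each point standing for 1 library. Adamts1 goes up in all 6 lines and Adamts5 by the most in M1, M2 and M3, while Timp1 goes down in all 6.

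Of the other proteoglycanases, Adamts15 rose in primary lines and Adamts9 in metastasis lines. Adamts15 stood under DMSO at 7.83, 5.42 and 2.17 CPM in T1, T2 and T3 and with PLX4720 at 26.6, 23.5 and 8.34 CPM, while the metastasis libraries held 0 to 0.09 CPM. Its rise in primary lines was 1.94 (SE 0.23, edgeR adjusted p = 0.00427), with all 3 lines higher. Over all lines the adjusted p was 0.0477 by edgeR, on metastasis counts of 1 fragment under DMSO and 5 with PLX4720. That call did not pass without T1 (0.0828), T2 (0.0829), T3 (0.0784), M1 (0.141) or M2 (0.282), and the change was 3.22 without M3. Adamts9 stood at 4.27, 9.82 and 8.36 CPM in M1, M2 and M3 under DMSO and 17.8, 51.6 and 10.03 CPM with PLX4720. Its rise there of 1.59 (edgeR adjusted p = 0.0148) did not pass without M1 (0.0502) or M2 (0.102), and was 2.21 without M3. In primary libraries it stood at 1.78 to 11.6 CPM, and its site difference passed neither under DMSO (0.39, edgeR adjusted p = 0.795) nor with PLX4720 (2.74, edgeR adjusted p = 0.0774).

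Adamts7, a protease of cartilage oligomeric matrix protein, moved in opposite directions by site. It stood at 2.09, 1.00 and 10.9 CPM in T1, T2 and T3 under DMSO and 4.63, 2.26 and 15.9 CPM with PLX4720. In M1, M2 and M3 it stood at 47.5, 31.3 and 15.7 CPM under DMSO and 21.1, 9.34 and 5.03 CPM with PLX4720. It was higher with the drug in each primary line and lower in each metastasis line, where the change was -1.51 (SE 0.17, edgeR adjusted p = 0.000511). The difference was -2.41 (SE 0.25, edgeR adjusted p = 0.00389). The primary change of 0.89 (edgeR adjusted p = 0.0257) did not pass without T1 (0.179) or T2 (0.105).

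Of the procollagen N-proteinases, which remove the amino-terminal propeptide of fibrillar collagens, Adamts2 and Adamts14 were high only in metastasis lines among these 12 libraries and moved apart with the drug. Adamts2 stood at 4.57, 44.0 and 5.40 CPM in M1, M2 and M3 under DMSO and 19.6, 114 and 30.2 CPM with PLX4720, and at 0 to 0.15 CPM in primary libraries. It rose in metastasis lines by 1.96 (SE 0.23, edgeR adjusted p = 0.000633). Adamts14 stood at 68.9, 82.2 and 41.0 CPM in M1, M2 and M3 under DMSO and 32.5, 66.8 and 19.8 CPM with PLX4720, and at 0.26 to 1.08 CPM in primary libraries. It was lower with the drug in each metastasis line, with a change of -0.81 (SE 0.15, edgeR adjusted p = 0.0072).

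Adamts6 and Adamts12, which are also matrix proteases, rose in metastasis lines by 1.35 and 1.84 (edgeR adjusted p = 0.00325 and 0.00167). Adamts12 stood at 3.22, 4.11 and 0.93 CPM in M1, M2 and M3 under DMSO and 7.23, 19.7 and 4.07 CPM with PLX4720. Over all lines its change of 0.92 (edgeR adjusted p = 0.0289) did not pass without T1 (0.0624), T3 (0.254), M2 (0.0831) or M3 (0.0571). Among the ADAMTSL genes, 3 of 4 tested rose over all lines, beside 14.5% of all genes tested. Adamtsl4, a protein of fibrillin microfibrils, rose by 1.17 (SE 0.14, edgeR adjusted p = 0.000818), and Adamtsl3 by 0.79 (SE 0.13, edgeR adjusted p = 0.00374). In metastasis lines Adamtsl3 stood at 16.6, 31.8 and 45.6 CPM under DMSO and 34.1, 86.1 and 137 CPM with PLX4720, a rise of 1.36 (SE 0.16, edgeR adjusted p = 0.000613). Adamtsl5 rose by 0.52 over all lines (edgeR adjusted p = 0.0107) but reached only 0.05 without T1. In primary lines Adamtsl4 changed by 1.10 and Adamtsl5 by 0.85 (edgeR adjusted p = 0.0175 and 0.0171). Neither passed without T1 (0.144 for each) or T3 (0.0891 and 0.0835). Adamtsl1 had 18 fragments under DMSO and 169 with PLX4720 in the metastasis lines together, and rose by 3.16 (SE 0.34, edgeR adjusted p = 0.00122).

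Metastasis lines were also compared with primary lines within each treatment. Under DMSO 6 of the 41 tested were higher and 2 lower in metastasis lines, or 19.5%, against 12.1% of all 14992 genes (4.64% higher, 7.49% lower). With PLX4720, 10 of 43 were higher and 3 lower, or 30.2%, against 13.5% of 15276 genes (5.62% higher, 7.88% lower). Both comparisons use the same 6 lines. The genes higher in metastasis lines were Timp1, Mmp2, Mmp3, Mmp19, Adamts2 and Adamts14 under DMSO. Those that were lower were Adamts15 and Mmp24.

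Under DMSO, Timp1 was 3.39 higher on the log2 scale (SE 0.39, edgeR adjusted p = 0.00434) and Adamts14 6.32 higher (SE 0.61, edgeR adjusted p = 0.00263) in metastasis lines, and both calls held without any 1 line. With PLX4720 the differences were 2.89 (SE 0.44, edgeR adjusted p = 0.00951) and 5.75 (edgeR adjusted p = 0.00684), the latter 5.13 without M2. Mmp2 was 7.04 higher under DMSO (SE 1.08, edgeR adjusted p = 0.0107), and 8.82 without T3, the primary line with the most Mmp2. With PLX4720 it was 7.37 higher (edgeR adjusted p = 0.0233), which did not pass without T1 (0.0637), M1 (0.0518), M2 (0.073) or M3 (0.051). That difference was 6.76 without T2 and 10.36 without T3. Adamts15 had 1 fragment in the metastasis lines against 573 in the primary lines under DMSO, a ratio of 512 (95% counting interval 91.6 to 20300). It passed the filter on low counts through the primary lines alone, so its p-value (edgeR adjusted p = 0.00534) is no separate support for the difference.

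Several other differences by site rested on few fragments or ended when 1 line was left out. Adamts2 was 8.14 higher under DMSO (SE 1.57, edgeR adjusted p = 0.0214) on 7 primary fragments, and did not pass without T1 (0.0563) or T2 (0.0789). It passed the filter on low counts through the metastasis lines alone. It was 10.08 higher without T3 and 6.31 higher without M2. With PLX4720 it was 9.73 higher (edgeR adjusted p = 0.0061) and passed with any 1 line left out, from 8.60 without M2 and 9.14 without T2 to 10.86 without T3. Mmp24 was lower under DMSO (log2 difference -7.20, SE 1.23, edgeR adjusted p = 0.0146) and did not pass without M2 (0.0674) or M3 (0.0602). It was -6.42 without T1 and -7.83 without M1. With PLX4720 it was -6.84 (edgeR adjusted p = 0.0106), and -6.04 without T1.

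Mmp3 was 5.29 higher under DMSO (SE 1.14, edgeR adjusted p = 0.0296) and did not pass without T1 (0.0838), T3 (0.0591), M1 (0.072), M2 (0.0605) or M3 (0.0599). The estimate was 5.90 without T3 and 4.40 without M1. Mmp19, a broadly expressed MMP, stood at 68.2, 36.6 and 18.3 CPM in M1, M2 and M3 under DMSO and 63.3, 27.7 and 6.43 CPM with PLX4720, and at 0.10 to 1.18 CPM in primary libraries. Its difference under DMSO was 5.76 (SE 0.93, edgeR adjusted p = 0.0122), and 5.18 without M1. The difference passed with any 1 line left out, but not with a replicate block by number. With PLX4720 it was 5.81 (edgeR adjusted p = 0.0222) and did not pass without T2 (0.0561; difference 6.37), T3 (0.0672), M1 (0.0532; difference 4.87) or M2 (0.0626). Exons of Mmp19 share 23.1% of their bases with an opposite-strand gene.

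With PLX4720, Adamts5 joined the genes higher in metastasis lines, by 4.67 (SE 0.68, edgeR adjusted p = 0.00849), a call that held with any 1 line left out. Adamtsl1 had 169 metastasis fragments against 0, at least 60.9-fold higher with a floor of 3 fragments over the group, and under DMSO 18 against 0, at least 6.71-fold higher. It passed the filter on low counts through the metastasis lines alone. Mmp15 was lower in metastasis lines (-7.02, edgeR adjusted p = 0.0191), which did not pass without M1 (0.0605), M2 (0.0821) or M3 (0.073) and was -5.03 without T1. Mmp15 passed the filter through the primary lines alone. Mmp16 was higher by 6.72 (edgeR adjusted p = 0.0249), not past the threshold without T2 (0.0683; difference 6.19), M1 (0.0569), M2 (0.0743) or M3 (0.0702), and 10.08 without T1. Adamts4, an aggrecanase, was 2.83 higher (edgeR adjusted p = 0.026) and failed without T2 (0.0882), T3 (0.0759), M1 (0.063) or M2 (0.0862). Adam19 was 5.27 higher (edgeR adjusted p = 0.0421) and passed without T2 only (4.65, adjusted p 0.0133), with adjusted p of 0.0829 without T1, 0.102 without T3, 0.0702 without M1, 0.122 without M2 and 0.101 without M3. Timp2 and Timp3 did not differ detectably by site under DMSO, with differences of -0.19 and -0.80 (edgeR adjusted p = 0.802 and 0.805).

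With M2 and M3 summed to 1 line, since their independence is not known, some calls ended. In metastasis lines these were the PLX4720 changes of Adam19 (edgeR adjusted p = 0.13), Adam9 (0.0954), Mmp10 (0.0574), Mmp16 (0.0704) and Mmp2 (0.0524), and over all lines that of Adamts12 (0.0595). By site they were Mmp24 (0.0584) and Mmp3 (0.0551) under DMSO, and Adam19 (0.103), Mmp15 (0.0682), Mmp16 (0.0646) and Mmp2 (0.0527) with PLX4720.

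**Figure D5:**
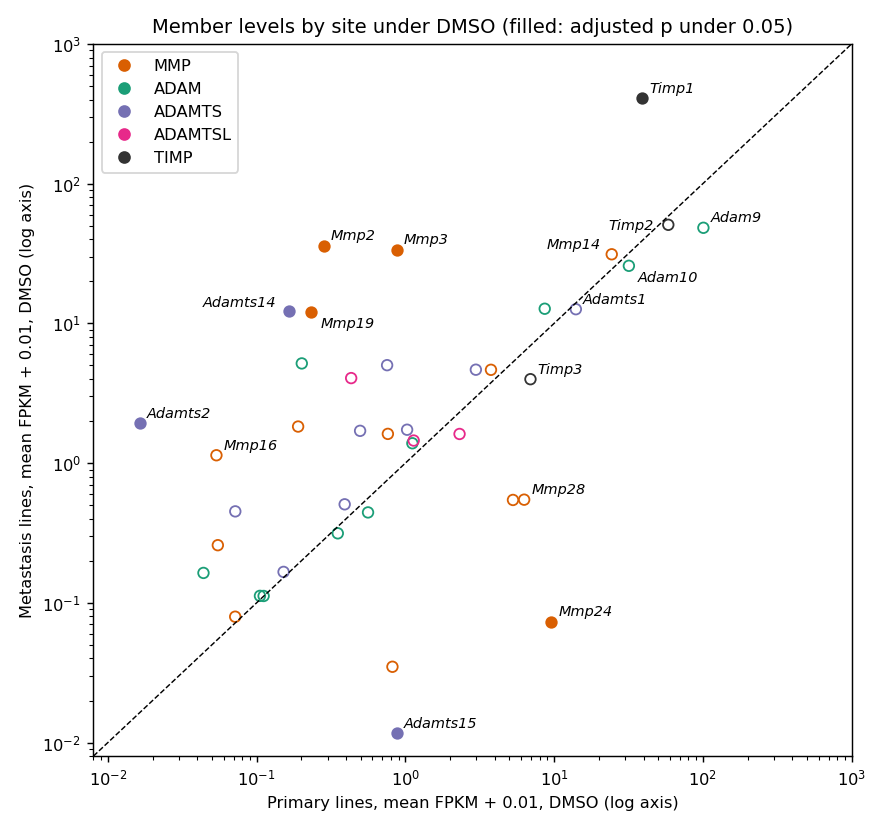
Mean FPKM plus 0.01 of each tested gene of the group under DMSO, in the 3 primary lines (x axis) and the 3 metastasis lines (y axis), both on log axes, with the dashed line at equal levels. Filled points passed the edgeR test: Timp1, Mmp2, Mmp3, Mmp19, Adamts2 and Adamts14 lie above the line, and Adamts15 and Mmp24 below it.

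Lists of partner genes, taken from textbook knowledge, were read in the same fits. A list of 17 transcription factor genes held AP-1 and ETS factors, which act on many MMP promoters, and Runx2, which is neither. Over all lines 5 of the 17 rose, Runx2 among them, and 4 fell. That is 52.9% against 27.2% of all genes, with a median change of 0.127. The ETS factors Etv4 (-2.15, SE 0.16, edgeR adjusted p = 0.000124) and Etv5 (-1.89, SE 0.23, edgeR adjusted p = 0.000793) fell, while the AP-1 members Fosl2 (0.99) and Jund (0.49) rose. Other AP-1 members are named here after their values were seen. Fosl1 fell by 0.95 (edgeR adjusted p = 0.00319) and was the only AP-1 member of the list called lower over all lines. Junb (0.52, edgeR adjusted p = 0.00855) and Fos (1.09, edgeR adjusted p = 0.048) rose. Jun was higher with the drug in primary lines (1.09, edgeR adjusted p = 0.0226) and lower in metastasis lines (-0.87, edgeR adjusted p = 0.0197), with a difference of -1.96 (edgeR adjusted p = 0.015).

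Of 22 tested partners in matrix proteolysis, such as the plasmin system, cathepsins and tetraspanins, 3 rose and 4 fell over all lines (median 0.108), and 31.8% called is close to the 27.2% of all genes. Ctsl, the lysosomal protease cathepsin L, fell by 0.98 (edgeR adjusted p = 0.000194), and Plaur, the urokinase receptor, by 0.61 (edgeR adjusted p = 0.00403). Reck, a membrane-anchored inhibitor of MMPs, rose by 1.02 (edgeR adjusted p = 0.0201) and is named after its value was seen. Of 25 tested membrane substrates of ADAM sheddases, 5 rose and 7 fell (median 0.063), or 48% called against 27.2%. The EGF-receptor ligands Areg (-3.18, edgeR adjusted p = 0.000223) and Btc (-2.92, edgeR adjusted p = 2.73e-05) fell, and the ligand Nrg1 (1.27, edgeR adjusted p = 0.000145) and the adhesion receptor Icam1 (3.03, edgeR adjusted p = 0.000294) rose. Of 17 tested substrates and relatives of ADAMTS, 7 rose and 2 fell (median 0.379), or 52.9% called against 27.2%. Thbs1, a matrix glycoprotein (1.69, edgeR adjusted p = 2.73e-05), the collagen chain Col1a1 (2.59, edgeR adjusted p = 0.000525) and Vcan, the proteoglycan versican (0.73, edgeR adjusted p = 0.0019), rose, and Acan, the proteoglycan aggrecan, fell by 1.02 (edgeR adjusted p = 0.00375).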

How the data were processed

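Stranded libraries of total RNA depleted of ribosomal RNA were prepared, per the labels' protocols. The authors deposited raw counts of fragments per gene. Per the file headers they were counted with featureCounts 1.5.2 on Ensembl 84 exons (GRCm38), keeping pairs whose mates both mapped, and no strand option was set. The aligner was not given in the sources used here. A symbol was found for 47224 of 47729 genes, and 1 ADAM gene is not reported here.

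The counts went into edgeR 4.0.16 under R 4.3.3 (filterByExpr, TMM scaling, quasi-likelihood test, Benjamini-Hochberg adjustment over all genes tested, threshold 0.05). PLX4720 was compared with DMSO in 1 fit of all 12 libraries that held a term for each line (the block) and a drug term for each site, leaving 4 residual degrees of freedom. The value over all lines averages both drug terms, and a contrast tested their difference. Sites were compared within each treatment on 6 libraries, with no block and 4 residual degrees of freedom. The pairing comes from the line named in the labels, and the deviations of its 2 libraries from their group means correlated at 0.839 to 0.923. Lines of both sites that carry the same number correlated at -0.098 to 0.012 and were not paired. No 2 libraries of a group agreed within counting noise. CPM and FPKM were computed from the counts with TMM factors, CPM over the library size of the tested genes. An SE is the size of the log2 change over the square root of F, which is approximate at low counts. Changes printed are fitted log2 changes. Floors and intervals cover counting error only. The fits were run on simulated data in which the lines did not differ from each other. That run cannot show how well the block handles differences between lines.

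The genes and lists were chosen with earlier results of these data known. The naming rule always takes Mmp2, Mmp9, Mmp14, Timp1 to Timp4 and Adam10, and in each comparison the called genes with a mean of at least 1 CPM or, where these exceed 12, the 6 largest changes per direction. From each partner list it takes up to 4 genes with the smallest p. Other genes of the group named in the text were chosen after their values were seen. Promoter sequences are from RefSeq (GRCm38.p6), and no protein sequence was used here. Alternatives were DESeq2 1.42.0, other scaling, other filters, another block, lines left out, each site fitted alone, and M2 and M3 summed.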

Additional observations from a re-analysis of the deposited data

Results flagged for a closer look

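The PLX4720 effect differed between metastasis and primary lines, by the edgeR test of the difference itself, for 6 genes. The difference (metastasis minus primary, log2) was 4.69 for Adamts5, 1.79 for Adamts1, 1.66 for Mmp28, 1.00 for Adam9, 1.64 for Adam12 and -2.41 for Adamts7. All but Adam12 passed with any 1 line left out. Adam9 and Adamts7 had opposite directions in every line of the 2 sites.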

How the results depend on the processing

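Counts of called genes of the group depended most on the pairing. Without the replicate block, 0 were called for PLX4720 over all lines, in primary lines, in metastasis lines or for the difference, and 18, 1, 15 and 0 of all genes, against 4496, 1362, 3378 and 487 with it. For the sites, adding a replicate block by number gave 10 calls under DMSO and 10 with PLX4720. It gave 1106 of all genes under DMSO against 1819. With 1 line left out, the calls ran from 14 to 21 over all lines, 4 to 18 in primary lines, 19 to 26 in metastasis lines, 5 to 12 for the difference, 6 to 9 for sites under DMSO and 7 to 12 with PLX4720. Calls of all genes ran as low as 91 in primary lines (without T1) and 122 for the difference (without T2), and were 2417 over all lines without T1. In primary lines, no filter gave 17 calls of the group and 2052 of all genes, and fitting that site alone gave 17 and 2491. That fit gave 2195 of all genes in metastasis lines. For the difference, DESeq2 gave 13 and 920, and no filter 14 and 996. For sites, DESeq2 gave 16 and 2974 under DMSO and 3163 of all genes with PLX4720, against 2061. Summing M2 and M3 to 1 line gave 23, 13, 21 and 7 calls of the group in the PLX4720 comparisons (all lines, primary, metastasis, difference) and 6 and 11 by site, and 19 of 20, 11 of 11, 19 of 24, 6 of 6, 6 of 8 and 9 of 13 calls were kept. It gave 1177 of all genes by site under DMSO. Of 1093 values of named genes under alternatives, 944 kept their side of the threshold, 128 kept the direction but lost the call, and 21 newly passed. Among values called in either fit, 0 changed direction. For values called in neither fit, a change of direction was not counted. The cause of these shifts was not tested. At this depth, 37 of the 83 genes stay under 1 CPM and their changes are poorly measured.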
